A study of Mus musculus with 6 samples.

Results

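The genes described here encode enzymes that use 2-oxoglutarate, oxygen and ferrous iron to remove methyl groups from chromatin and RNA or to hydroxylate proteins and small metabolites. They were taken by gene name and not by their values, though earlier results of these data were known: 45 genes, of 46078 listed, in 5 subfamilies. These are 3 Tet genes, 20 genes of the Kdm, Jmjd and Phf names, 9 of the Alkbh and Fto names, 4 of the Egln and Hif1an names, and 9 others. Bulk RNA-sequencing was performed on growth plate cartilage of the distal femur and proximal tibia of mouse embryos at E18.5. The 3 control libraries carried Idh1 LSL/+, an Idh1 allele kept silent by a lox-stop-lox cassette, without Cre. The 3 Idh1 mutant libraries carried Col2a1-Cre together with Idh1 LSL/+, so that mutant Idh1 is switched on only where the type 2 collagen promoter drives Cre, in chondrocytes and any other cell that has expressed it. Both groups thus share the silent allele, and a control with Cre alone was not analysed here. The age field reads E18.5, whereas the breeding note of the same records speaks of animals kept to 2 months. The study's methods also give E18.5.

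2-oxoglutarate is made by isocitrate dehydrogenase in normal metabolism and is consumed by each of these enzymes in every reaction cycle, with succinate as the by-product. Mutant IDH1 reduces 2-oxoglutarate to 2-hydroxyglutarate, a look-alike that can occupy the same pocket and inhibit many members of the family. Their activity therefore can change with no change in their mRNA, and RNA-sequencing reads the mRNA alone. The avascular growth plate is poor in oxygen, and some members of the family act as oxygen sensors. Collagen prolyl and lysyl hydroxylases use the same cofactors and are not among the genes described here.

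Each library held 23445687 to 30415773 reads assigned to genes, so that 3 counts, the most that a count of 0 allows, corresponded to 0.0986 to 0.128 CPM, the read count scaled to a common library size. Levels within 1 gene are given in CPM with TMM factors, and levels between genes in TPM, which also divides by exonic length. Idh1 itself, the targeted gene, stood at 37.2, 39.1 and 65.3 CPM in controls and 47.5, 47.7 and 56.2 CPM in mutants. Counts per gene do not separate the mutant from the normal allele, and the groups overlapped (log2 fold change 0.10 ± 0.19 SE, edgeR adjusted p = 0.940). Cartilage markers were abundant, the summed level of 9 genes being 4988 to 8920 CPM in controls and 6943 to 9268 CPM in mutants. Skeletal muscle RNA was abundant too, 7 markers summing to 12848 to 18880 CPM in controls and 12213 to 17867 CPM in mutants. The summed tendon markers (5 genes) were lower in all mutants, 2990 to 3285 against 2002 to 2337 CPM. So was the sum of 6 erythroid markers, 544 to 1581 against 288 to 426 CPM. The small sum of 5 epidermis markers was lower too (10.2 to 20.2 against 9.08 to 9.91 CPM), and Krt5 among them passed the test (adjusted p = 0.036 by edgeR). Not every marker followed its sum. The groups overlapped for Thbs4 of tendon (log2 fold change 0.02), for Hba-a2 of erythroid cells, and for Krt10, Krt1 and Trp63 of epidermis. Of the tendon markers, Tnmd passed (adjusted p = 0.037 by edgeR). The summed markers of hypertrophic cartilage, bone, endothelium, macrophages with osteoclasts, and fibroblasts overlapped between the groups. Some single markers of these lists were apart and higher in mutants: Dmp1 of bone (log2 fold change 1.75), Kdr and Emcn of endothelium, and Adgre1 and Csf1r of macrophages. Runx2 of bone was apart and lower (-0.36). None of these passed the test. In whole tissue, a change in the number of cells of a type and in RNA per cell cannot be told apart. The part of this mixture in the members' values was not tested. Mutant 3 stood apart from the other 5 libraries: it held 26356 Xist counts against 0 to 13 elsewhere, and 0 counts over 4 Y-linked genes against 3871 to 5449. This is the pattern of RNA from a female, and the other 5 libraries show that of males. Sex was thus uneven between the groups and was not in the fit. Its part in the members' values was not tested.

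All 3 Tet genes, nearly all of the demethylase genes and all 4 oxygen sensors were expressed, and none passed the test between genotypes. Of the 45 members, 43 had enough counts to be tested, and 0 had an adjusted p under 0.05 by edgeR's quasi-likelihood test, against 0.19% of the 16813 genes tested (0.0535% higher and 0.137% lower in mutants). DESeq2 also called 0. At an unadjusted p under 0.05 there were 2 members by either tool, Tet1 and Kdm5b, both lower in mutants. That is 4.65% of the tested members, beside 8.64% of all tested genes, of which 3.71% were higher and 4.93% lower in mutants. The fitted log2 fold changes, written as mutant minus control throughout, were positive for 18 members and negative for 25 (positive for 49.3% of all tested genes), and their median was -0.02, beside 0.00 for all tested genes. The differences were small: the median size was 0.09 on the log2 scale for members, 0.12 for all tested genes and 0.10 for protein-coding genes, and 32 members lay within 10% of equal levels. The members' median standard error was 0.10 log2 units, and 0.13 over all genes.

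**Figure D1:**
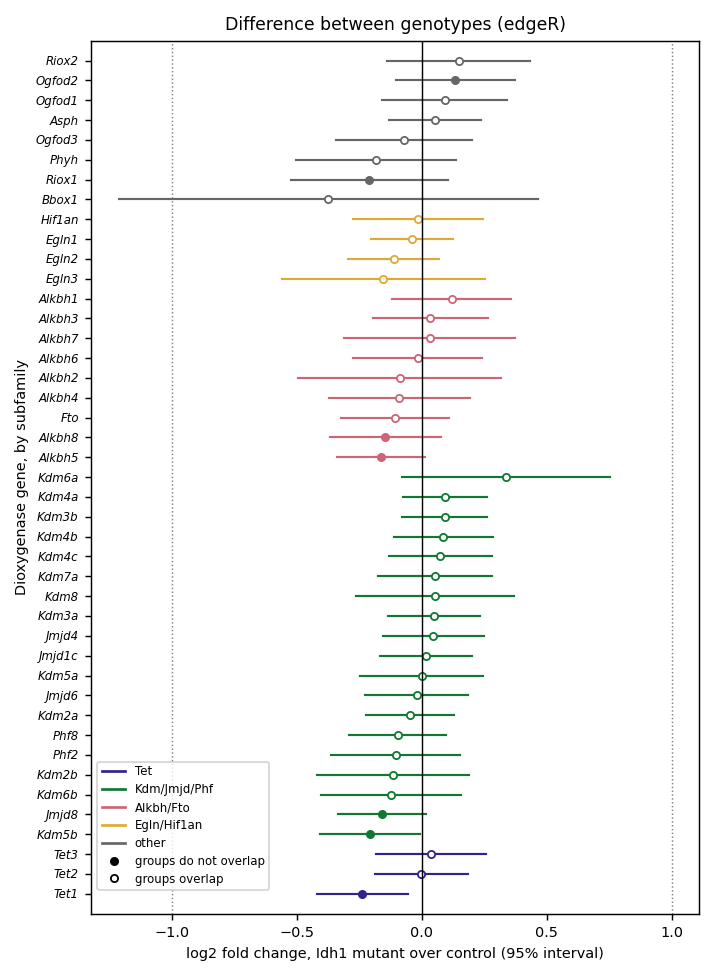
Difference between genotypes for each of the 43 tested members, as the edgeR log2 fold change of mutant over control with its 95% interval (horizontal axis, log2 units), coloured by subfamily, and filled points mark groups that do not overlap. The intervals of 38 members stay within 0.5 log2 units of 0, and those of Tet1 and Kdm5b alone exclude 0.

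The intervals bound, gene by gene, how large a difference of the whole tissue these libraries could hide. They do not bound a difference within chondrocytes alone, since the tissue also held muscle and other cells. They are not adjusted for the number of members. For 38 of the 43 tested members the 95% interval of the difference lay within 0.5 log2 units of 0, a 1.41-fold change either way. For 42 it lay within 1 log2 unit, Bbox1 being the exception. Within 0.25 log2 units lay 9 members. The 3 mutant values lay all below the 3 control values for 6 members (Tet1, Kdm5b, Jmjd8, Alkbh5, Alkbh8 and Riox1), which is 14.0% of those tested beside 7.62% of all genes. They lay all above for 1 member, Ogfod2, or 2.33% beside 6.83%. Both directions together came to 7 members, 16.3%, beside 14.4% of all tested genes, so that separated groups were about as frequent among the members as among genes at large. With 3 libraries a group, an exact two-sided permutation test of a single gene cannot go below p = 0.1, and p-values measure the spread between these libraries.

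Members were well expressed. Their median level was 20.7 TPM, beside 13.7 TPM for all tested genes and 17.5 TPM for protein-coding genes, and 28 members lay above the median of all tested genes. Tested members ran from 0.869 TPM for Bbox1 to 75.8 TPM for Egln2. The summed level of the 45 genes was 1141 ± 25 TPM in controls and 1107 ± 43.9 TPM in mutants (SD, n = 3 each). The largest share was that of the Kdm, Jmjd and Phf genes, 487 ± 11.7 TPM in controls and 481 ± 16.3 TPM in mutants. The subfamily sums of the groups overlapped in every case.

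**Figure D2:**
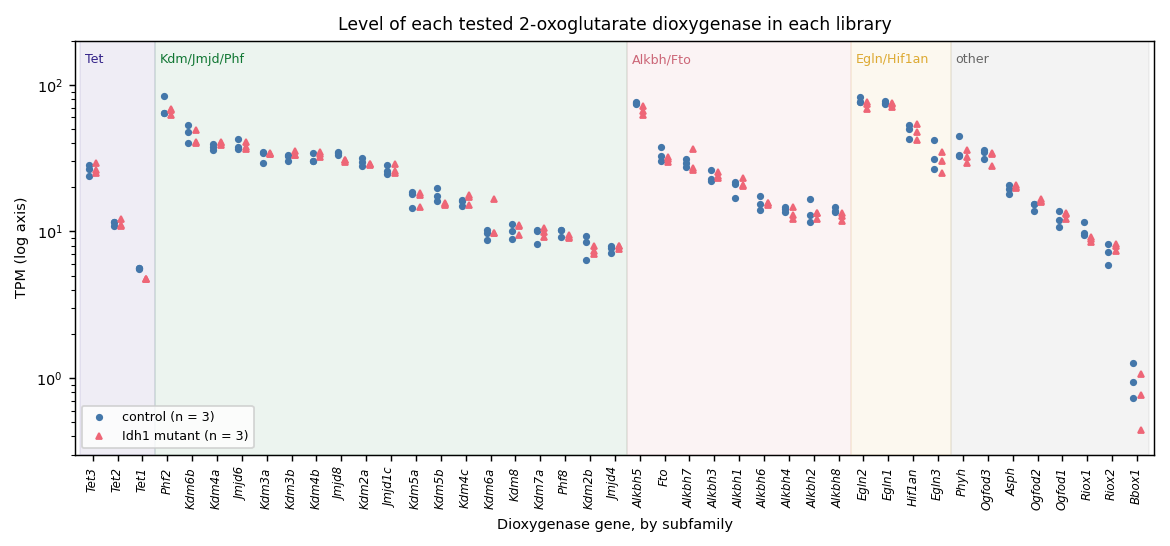
Level of each tested member (vertical axis, TPM on a log scale) in each of the 3 control libraries (circles) and 3 Idh1 mutant libraries (triangles), by subfamily in order of mean level. Mean levels run from 75.8 TPM for Egln2 to 0.869 TPM for Bbox1.

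The Tet enzymes oxidise the methyl group of methylated cytosine in DNA, the first step of active demethylation. Tet3 was the most abundant, at 26.6 TPM, followed by Tet2 at 11.3 TPM and Tet1 at 5.17 TPM. The Tet1 mRNA measured 26.2, 26.7 and 26.5 CPM in controls and 22.7, 22.6 and 22.0 CPM in mutants. Every mutant library was below every control library, and the spread within each group was small. The difference was -0.24 ± 0.08 (log2, SE; 95% interval -0.42 to -0.06), with an adjusted p of 0.441 by edgeR, the lowest of any member. The exact permutation p was 0.1, the smallest that 3 against 3 can give. Leaving out any 1 library kept the Tet1 value between -0.25 and -0.23. Tet3 stood at 101, 92.1 and 111 CPM in controls and 115, 97.0 and 100 CPM in mutants (0.04 ± 0.10, adjusted p = 0.957). Tet2 stood at 57.8, 63.4 and 63.6 CPM against 66.2, 59.0 and 59.4 CPM, and its difference was 0.00 ± 0.08 with an interval of -0.19 to 0.18. Neither of these genes separated the groups, and the summed level of the family was 43.2 ± 2.13 TPM in controls and 43.0 ± 2.98 TPM in mutants. The interval of Tet1 overlapped those of Tet2 and Tet3, and whether the genes differed from each other was not tested.

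The Jumonji demethylases remove methyl groups from lysines of histone tails. Of the 20 genes with Kdm, Jmjd or Phf names, 19 were tested, 10 with positive and 9 with negative fold changes and a median of 0.02. Phf2, a demethylase with a PHD finger that is known to act on repressive histone H3 marks, was the most abundant at 68.3 TPM. It measured 107, 109 and 144 CPM in controls and 114, 106 and 114 CPM in mutants (-0.11 ± 0.12, adjusted p = 0.872). Control 3 alone was high, and without it the value was 0.05. The lowest of the tested genes was Jmjd4, a lysyl hydroxylase of the translation termination factor, at 7.71 TPM. Jmjd4 counts were nearly flat, 17.8, 17.6 and 16.7 CPM in controls and 18.3, 17.3 and 18.1 CPM in mutants (0.04 ± 0.09, adjusted p = 0.944). Kdm4d, a member of the Kdm4 group known mainly from testis, was barely detected, with 5, 10 and 3 counts in controls and 7, 6 and 7 in mutants, and was not tested.

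Kdm5b, which removes methyl groups from the lysine that marks active promoters, was the other gene under an unadjusted p of 0.05. Its levels were 84.7, 105 and 94.9 CPM in controls and 83.3, 80.4 and 82.3 CPM in mutants. The groups did not overlap, though the lowest control lay just above the highest mutant. The difference was -0.21 ± 0.09 (interval -0.41 to -0.01), with adjusted p = 0.557 by edgeR, and without control 2 it was -0.13. Kdm5a, its relative with the same target, did not separate the groups, at 82.7, 81.9 and 67.3 CPM against 81.2, 67.6 and 82.8 CPM (0.00 ± 0.11). Jmjd8, a Jumonji protein of the endoplasmic reticulum, stood at 29.8, 31.0 and 29.9 CPM in controls and at 27.5, 27.4 and 26.3 CPM in mutants. The groups were again apart, with a difference of -0.16 ± 0.08 (adjusted p = 0.633 by edgeR).

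The Kdm3 and Kdm4 genes did not pass the test. Kdm4a, Kdm4b and Kdm4c, which act on trimethylated histone H3 of silent chromatin, had fold changes of 0.09, 0.09 and 0.07. Kdm3a and Kdm3b, which remove the lower methyl states of the same mark, gave 0.05 and 0.09, and their relative Jmjd1c gave 0.02. All 6 intervals included 0 and stayed within 0.5 log2 units of it. Kdm3a, Kdm4b and Kdm4c are known targets of hypoxia-inducible factors in other cells. Their levels in controls and mutants were 47.4 to 54.3 and 52.6 to 55.0 CPM for Kdm3a, 46.6 to 55.2 and 51.1 to 55.2 CPM for Kdm4b, and 27.9 to 30.9 and 28.4 to 32.7 CPM for Kdm4c. These ranges overlapped for each gene. Kdm2a and Kdm2b, which bind unmethylated CpG islands, had values of -0.05 ± 0.08 and -0.12 ± 0.14.

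Kdm6a and Kdm6b, which erase the Polycomb mark on histone H3, did not pass the test. Kdm6b measured 88.4, 108 and 121 CPM in controls and 110, 89.4 and 90.7 CPM in mutants (-0.12 ± 0.13, adjusted p = 0.857 by edgeR). Without control 3 the value was -0.01. Kdm6a, on chromosome X, had the highest positive fold change of all members, 0.34 ± 0.19 (interval -0.08 to 0.75, adjusted p = 0.682 by edgeR). Its levels were 26.4, 25.6 and 23.4 CPM in controls and 25.9, 25.8 and 43.4 CPM in mutants. Mutant 3 alone was high, and without that library the difference was 0.04 ± 0.10 (adjusted p = 0.959). Mutant 3 is the library with abundant Xist and no Y-linked counts, and Kdm6a is known to be expressed from both X chromosomes of females. Whether sex set the Kdm6a value was not tested, since no other library shows this pattern. Uty, the Y-linked relative of Kdm6a, had 12.2 to 17.4 CPM in controls, 13.0 and 15 CPM in mutants 1 and 2, and 0 counts in mutant 3. The X-linked Kdm5c, which is no member, was likewise highest in mutant 3, but above every control in all 3 mutants, at 102, 96.1 and 107 CPM in controls and 111, 116 and 157 CPM in mutants. Its difference of 0.34 ± 0.13 (adjusted p = 0.501 by edgeR) was 0.16 ± 0.09 without mutant 3. Kdm5d, its Y-linked relative, had 27.9 to 35.1 CPM in controls, 37.6 and 40.1 CPM in mutants 1 and 2, and 0 counts in mutant 3. Phf8, the other member on chromosome X, was not high in mutant 3: it measured 30.2, 27.5 and 31.2 CPM in controls and 27.7, 28.5 and 26.8 CPM in mutants (-0.10 ± 0.09, adjusted p = 0.827).

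**Figure D3:**
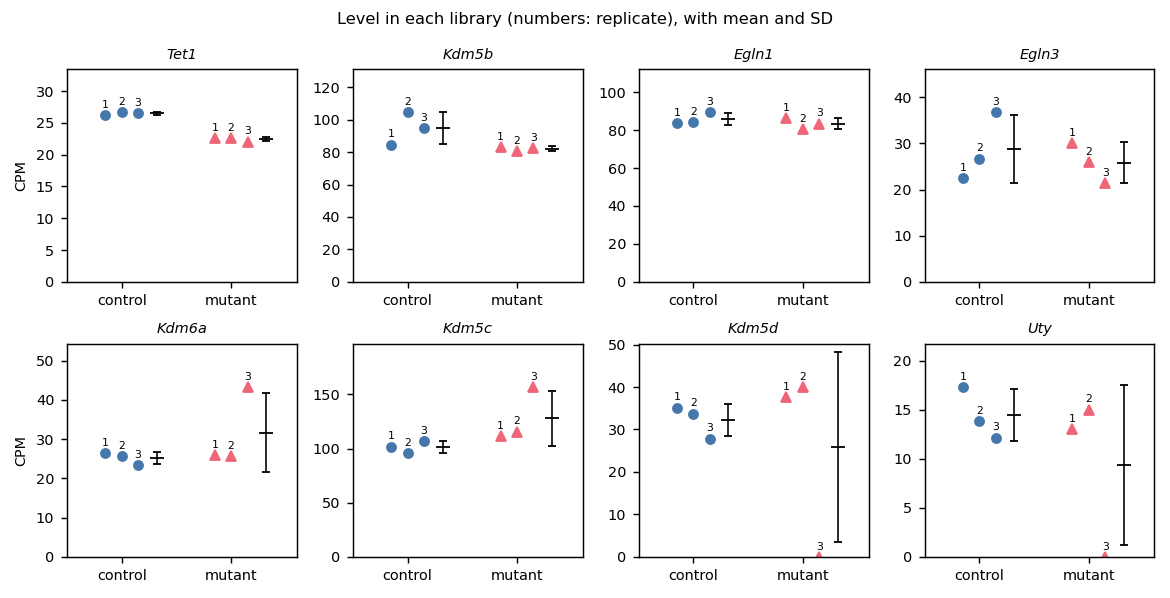
Level of 8 genes in each library (vertical axes, CPM from 0, each panel on its own scale), with the replicate number at each point and the mean and SD of the 3 libraries as a bar. Tet1 and Kdm5b have all mutants below all controls, whereas Kdm6a is high, and Kdm5d and Uty are at 0, in mutant 3 alone. Kdm5c is above the controls in all 3 mutants and highest in mutant 3.

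The other genes of this subfamily varied little. Kdm7a, a demethylase with a PHD finger, gave 0.05 ± 0.10. Kdm8, a protein hydroxylase, gave 0.05 ± 0.14 at 6.90 to 8.52 CPM in controls and 7.19 to 8.55 CPM in mutants. Jmjd6, a lysyl hydroxylase of splicing factors, gave -0.02 ± 0.09.

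The AlkB family repairs alkylated bases and removes methyl groups from RNA. All 9 genes were tested, 3 with positive and 6 with negative fold changes and a median of -0.09. Alkbh5, which removes m6A, the most common internal mark of mRNA, had the highest level of the subfamily, 70.9 TPM. It measured 141, 143 and 149 CPM in controls and 129, 120 and 137 CPM in mutants. All mutants were lower, by -0.16 ± 0.08 on the log2 scale (interval -0.34 to 0.01, adjusted p = 0.625 by edgeR). Fto, the other m6A demethylase, at 32.4 TPM, measured 135, 128 and 160 CPM in controls and 136, 126 and 130 CPM in mutants. These groups overlapped, control 3 being the high one, and the difference was -0.11 ± 0.10 (adjusted p = 0.827) and -0.01 without control 3. Alkbh8, which completes the modification of wobble uridines in tRNA, separated the groups at a lower level, with 16.5, 16.0 and 15.8 CPM against 15.5, 13.5 and 14.5 CPM (-0.15 ± 0.10, adjusted p = 0.755).

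The remaining AlkB genes overlapped between groups. Alkbh2 and Alkbh3 repair alkylated DNA and RNA. Alkbh2 had few reads, 4.58, 6.0 and 4.22 CPM in controls and 4.83, 4.34 and 4.75 CPM in mutants (-0.09 ± 0.18, interval -0.50 to 0.32, adjusted p = 0.944 by edgeR). Control 2 alone was high, and without it the value was 0.08. Alkbh3 ran from 21.9 to 26.9 CPM in controls and 23.6 to 26.3 CPM in mutants (0.03 ± 0.10). Alkbh1, an enzyme acting on tRNA, had a value of 0.12 ± 0.11, control 3 being low at 36.1 CPM. Alkbh7, a mitochondrial member, gave 0.03 ± 0.15. Alkbh4 and Alkbh6 gave -0.09 ± 0.13 and -0.02 ± 0.11.

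Egln1, Egln2 and Egln3 are the prolyl hydroxylases that mark the alpha subunits of hypoxia-inducible factors for destruction by Vhl, and Hif1an is the asparaginyl hydroxylase that blocks their transcriptional activity. Egln1 and Egln3 are themselves well-known targets of these factors, which bind the core letters ACGTG or GCGTG. The 250 bases before the RefSeq start of these 2 genes (GRCm38.p6, both on the reverse strand) are shown because they are the members in which such a feedback is best known, with every match to either core, or to its reverse complement, in capitals. The Egln1 stretch lies at chr8:124949255-124949504 and holds 1 match to each core, and the Egln3 stretch lies at chr12:54203875-54204124 and holds 1 ACGTG.
Egln1: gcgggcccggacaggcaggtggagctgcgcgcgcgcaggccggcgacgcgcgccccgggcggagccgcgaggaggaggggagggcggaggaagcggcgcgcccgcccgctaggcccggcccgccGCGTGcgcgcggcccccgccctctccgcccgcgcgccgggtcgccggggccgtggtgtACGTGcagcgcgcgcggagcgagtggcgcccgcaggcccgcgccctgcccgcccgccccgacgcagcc
Egln3: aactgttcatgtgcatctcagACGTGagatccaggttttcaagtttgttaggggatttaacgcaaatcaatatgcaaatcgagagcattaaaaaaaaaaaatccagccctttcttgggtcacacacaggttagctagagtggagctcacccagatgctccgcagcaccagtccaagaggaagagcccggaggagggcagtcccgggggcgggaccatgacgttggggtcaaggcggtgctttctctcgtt
Such short matches are frequent: ACGTG occurred in 16.6% of the 32851 starts in the RefSeq table and in 29.8% of the 47 starts of the 37 members found in it, and either core in 38.6% and 53.2%. Both cores contain CG, and the stretches of the members held more CpG than those of all starts (median 15 against 6). The shares were not adjusted for this, and the starts in the table were not limited to tested genes. A match is only a description of the letters. Whether the printed matches serve the known feedback was not tested, and sites outside the 250 bases were not searched.

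The oxygen sensors were among the most abundant members. Egln2 and Egln1 stood at 75.8 and 74.8 TPM, Hif1an at 48.3 and Egln3 at 31.8 TPM. All 4 fold changes were negative, with a median of -0.08, and for each gene the groups overlapped. Egln1, the main sensor in most tissues, measured 83.6, 84.4 and 89.6 CPM in controls and 86.1, 80.7 and 83.4 CPM in mutants. Its difference of -0.04 ± 0.07 had an interval of -0.21 to 0.12, among the narrowest here (adjusted p = 0.932). Egln2 measured 67.6, 75.1 and 70.3 CPM against 69.4, 61.5 and 66.0 CPM (-0.11 ± 0.08, adjusted p = 0.777). Egln3, known as the most inducible of these genes, was the most variable, at 22.6, 26.7 and 36.9 CPM in controls and 30.1, 25.9 and 21.3 CPM in mutants. Its value was -0.16 ± 0.18 (interval -0.56 to 0.25, adjusted p = 0.881 by edgeR). Control 3 was the highest library and mutant 3 the lowest. Without control 3 the value was 0.07. The mean CPM of mutants 1 and 2 alone was 0.976 times that of the controls. Hif1an measured 104, 90.7 and 115 CPM against 116, 102 and 89.0 CPM (-0.02 ± 0.12, adjusted p = 0.988 by edgeR). The sum over the 4 genes was 237 ± 11.6 TPM in controls and 224 ± 14.0 TPM in mutants.

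The 9 other members act on proteins, lipids and carnitine precursors. Phyh, the peroxisomal enzyme that starts the breakdown of phytanic acid, had the highest level, 34.7 TPM. It measured 19.8, 27.4 and 20.3 CPM in controls and 22.0, 19.8 and 17.7 CPM in mutants (-0.18 ± 0.14, adjusted p = 0.798). Control 2 alone was high, and without it the value was -0.01. Asph, which hydroxylates epidermal growth factor-like domains, gave 0.05 ± 0.08. Bbox1, the last enzyme of carnitine synthesis, was the lowest of the tested members, at 1.31, 1.79 and 1.05 CPM in controls and 1.52, 1.1 and 0.619 CPM in mutants. Its difference of -0.37 ± 0.37 (interval -1.21 to 0.46, adjusted p = 0.854 by edgeR) was the most negative of the members and had the largest error. Leaving out 1 library moved it between -0.70 (without mutant 1) and -0.08 (without mutant 3), and it was -0.14 without control 2. Tmlhe, the first enzyme of the same route, was listed with 0 counts in all 6 libraries. The annotation places it on an unplaced scaffold.

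Riox1, a histidyl hydroxylase of the ribosome, separated the groups, with 7.20, 8.77 and 7.26 CPM in controls and 6.82, 6.90 and 6.36 CPM in mutants. The difference was -0.21 ± 0.14 (adjusted p = 0.752 by edgeR), and without control 2, the highest library, it was -0.11. Riox2, which acts on another ribosomal protein, overlapped and had a value of 0.15 ± 0.13. Ogfod2 was the single member with every mutant above every control, at 11, 11.1 and 10.2 CPM against 11.8, 12.2 and 11.5 CPM (0.13 ± 0.11, adjusted p = 0.802). Ogfod1, a prolyl hydroxylase of the ribosome, gave 0.09 ± 0.11, and Ogfod3 gave -0.07 ± 0.12.

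Single libraries set many of the extreme values. Control 3 was the highest of all 6 libraries for 15 members and the lowest for 11. Mutant 1 was the highest mutant for 29 of the 43 tested members, and mutant 2 the lowest for 22. The median deviation from a member's mean was 0.05 log2 units in control 3, 0.04 in mutant 1 and -0.06 in mutant 2. The median coefficient of variation among libraries was 9.41% in controls and 5.68% in mutants. Control 3 also had the lowest cartilage sum, 4988 CPM, and the highest muscle sum, 18880 CPM. The part of tissue composition in its values was not tested.

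**Figure D4:**
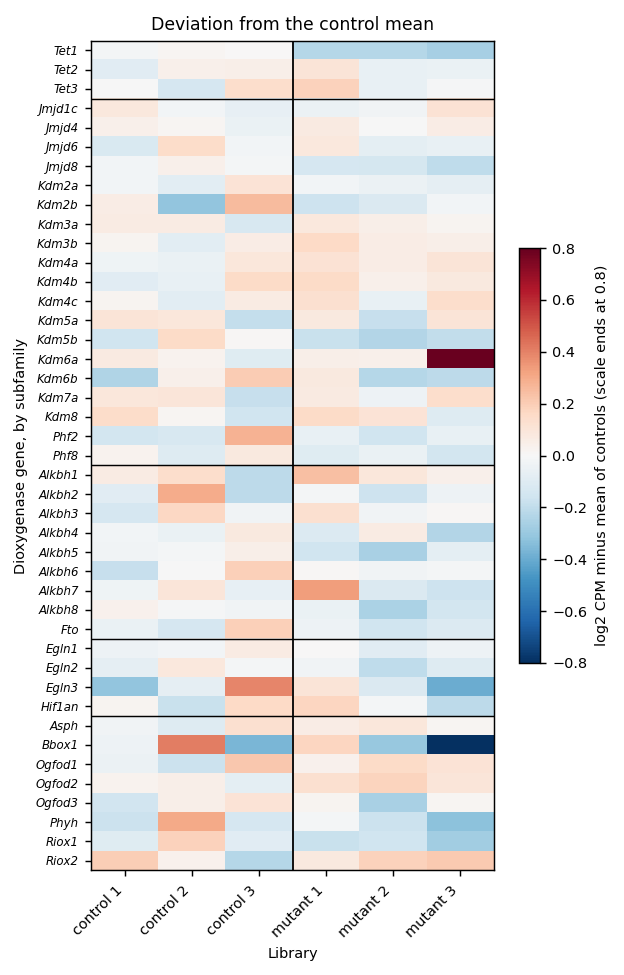
Deviation of each tested member in each library from the mean log2 CPM of the 3 controls (colour, log2 units, ends at 0.8 either way), with subfamilies parted by lines. Tet1 is below the control mean in all 3 mutants, and the strongest colours are those of single libraries, Kdm6a and Bbox1 in mutant 3.

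Genes that work with or against the members were read in the same way, and none passed the test. Of 75 genes in 6 lists, 73 were tested, and 0 had an adjusted p under 0.05 by edgeR, beside 0.19% of all tested genes. An unadjusted p under 0.05 was found for 2, or 2.74%, beside 8.64% of all tested genes. The groups did not overlap for 10 of the 73, or 13.7%, beside 14.4% of all tested genes. The 2 under the unadjusted p were both among 10 tested relatives of the family: Kdm5c, described above, and Asphd2, a relative of Asph. Asphd2 measured 10.3, 8.41 and 8.56 CPM in controls and 6.48, 6.70 and 7.74 CPM in mutants (-0.38 ± 0.14, adjusted p = 0.501). Of the DNA methylation genes, 4 were tested. The 2 with the lowest p by edgeR were Dnmt3a, a de novo methyltransferase (-0.13 ± 0.10, adjusted p = 0.782), and Dnmt3b, its relative (-0.11 ± 0.16, adjusted p = 0.910). Of the 21 genes of histone methyltransferases and subunits of their complexes, 6 had positive and 15 negative values. The positive share was 28.6%, beside 49.3% of all tested genes, and was not tested. Setd1a, which writes the mark that Kdm5b removes, measured 35.0, 34.3 and 33.1 CPM in controls and 40.1, 37.6 and 37.3 CPM in mutants (0.17 ± 0.08, adjusted p = 0.615 by edgeR). Setd2, a writer of the mark of transcribed gene bodies, measured 125, 122 and 133 CPM against 111, 115 and 118 CPM (-0.14 ± 0.07, adjusted p = 0.652 by edgeR). Both genes, named for the lowest p of their list, had groups that did not overlap, and neither passed the test.

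For m6A, 13 writers and readers were tested. Mettl3, the catalytic writer, measured 20.9, 19.8 and 15.5 CPM in controls and 22.1, 22.7 and 22.2 CPM in mutants (0.26 ± 0.12, adjusted p = 0.613 by edgeR). Cbll1, a subunit of the writer complex, measured 9.05, 9.55 and 9.17 CPM against 7.41, 8.12 and 7.95 CPM (-0.24 ± 0.12, adjusted p = 0.631). The groups did not overlap for either gene, and these were the 2 with the lowest p of their list. In the hypoxia-inducible factor axis, with 8 genes, Epas1, an alpha subunit, measured 106, 92.9 and 106 CPM in controls and 113, 109 and 119 CPM in mutants (0.17 ± 0.08, adjusted p = 0.635). Vhl, which recognises the hydroxylated subunits, gave -0.15 ± 0.10 (adjusted p = 0.756). Hif1a, the alpha subunit on which chondrocyte survival is known to depend, gave 0.06 ± 0.09. Of 17 genes that make or use 2-oxoglutarate, succinate or fumarate, 12 had positive values (70.6%, beside 49.3% of all tested genes). The lowest p-values were those of Idh3g, a subunit of the mitochondrial isocitrate dehydrogenase (0.14 ± 0.08, adjusted p = 0.703), and Glud1, which makes 2-oxoglutarate from glutamate (0.13 ± 0.08, adjusted p = 0.712). D2hgdh, which oxidises the D form of 2-hydroxyglutarate, measured 10.4, 9.03 and 3.50 CPM in controls and 10.1, 10.9 and 10.6 CPM in mutants, so that its value of 0.46 ± 0.31 (adjusted p = 0.753) came with 1 low library, control 3.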

How the data were processed

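Poly(A) RNA of 3 control and 3 Idh1 mutant growth plate samples was sequenced after preparation with a stranded kit. The authors trimmed reads with Trim Galore 0.6.4, aligned them to GRCm38 with STAR 2.6.1d and counted them per gene with featureCounts 1.6.4, and the deposited values are raw counts per gene, with exonic length. Per the file headers, counting ignored strand and dropped reads shared by overlapping genes. Exons of 19 members overlap another annotated gene, for 18 on the opposite strand, and reads there cannot be assigned.

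Genes were tested with edgeR 4.0.16 (R 4.3.3, quasi-likelihood test, TMM factors, filterByExpr with a minimum count of 10, Benjamini-Hochberg adjustment over 16813 genes), which names every p here unless stated otherwise. Adjusted p under 0.05 was called. Intervals are at 95%. Alternatives used DESeq2 1.42.0 and limma-voom (limma 3.58.1). The study's own model included litter, which the labels do not give. CPM used TMM factors. TPM used the deposited length. CPM floors cover counting error only. Scripts were tested on simulated data.

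Members, lists and tests were chosen with earlier results of these data known. Each member is given at least its level or direction. All library values are given for the 6 members with the lowest p, the highest and lowest of each subfamily, those on chromosome X and some others, and in each list the 2 genes with the lowest p are named. Riox1 and Riox2 are listed in the files under older symbols. The labels number replicates but do not say whether they are separate animals, so p-values measure the spread between these libraries.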

Additional observations from a re-analysis of the deposited data

How the results depend on the processing

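No member was called under any of the alternatives run, the lowest adjusted p of a member lying between 0.328 and 1, and 0 genes of the context lists were called. The number of all genes called was 32, and it was 193 with DESeq2, 96 with DESeq2 and a replicate block, 3 with edgeR and a replicate block, 19 with limma-voom, 259 with no low-count filter and 3 to 17 with 1 library left out. Members with an unadjusted p under 0.05 numbered 2, and 0 with DESeq2 and the replicate block, 1 with edgeR and the block, 1 with upper-quartile factors and 1 to 2 with 1 library left out. Same-numbered libraries did not deviate together (correlations over genes of -0.16, -0.01 and -0.15), and no library correlated best with its own number, so the numbers were not taken as pairs. Members with groups apart numbered 8 to 12 with 1 library left out (18.6% to 27.9% of those tested), beside 20.8% to 26.4% of all tested genes under the same settings, a background chosen after seeing the data. The median log2 fold change of the members then ran from -0.065 to 0.015. Upper-quartile factors turned Tet2 to 0.0098 and Kdm5a to 0.0090. Of 342 single-member values under other settings 340 kept their sign and side of the threshold, and of 258 with 1 library left out 230 did. The 18 members that turned sign there lay within 0.16 log2 units of 0, and their ranges were -0.058 to 0.033 for Tet2, -0.040 to 0.11 for Tet3, -0.087 to 0.0095 for Kdm2a, -0.25 to 0.020 for Kdm2b, -0.010 to 0.085 for Kdm3a, -0.039 to 0.059 for Jmjd1c, -0.089 to 0.091 for Kdm5a, -0.032 to 0.11 for Kdm7a, -0.022 to 0.12 for Kdm8, -0.18 to 0.048 for Phf2, -0.081 to 0.059 for Jmjd6, -0.19 to 0.080 for Alkbh2, -0.033 to 0.12 for Alkbh3, -0.11 to 0.086 for Alkbh6, -0.14 to 0.12 for Alkbh7, -0.30 to 0.067 for Egln3, -0.12 to 0.073 for Hif1an and -0.15 to 0.019 for Ogfod3. The cause of these shifts was not tested. The median member level was 20.8 TPM over tested genes only.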

Other observations

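The 250 bases before the RefSeq start (GRCm38.p6) of the members held more CpG than those of all 32851 starts in the table. The median was 15 CpG and 58.8% G or C over the 47 starts of 37 members, and 6 CpG and 52.4% over all starts. The table was not limited to tested or protein-coding genes, and the members were not compared with such genes alone. Either count describes the sequence and was not set against the levels.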
